A study of Mus musculus with 2 samples.

Results

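Annexins are a family of calcium-dependent phospholipid-binding proteins. Each has a conserved core that binds negatively charged membrane lipids when calcium rises, and an amino-terminal tail that differs between members and binds partners such as S100 proteins. In stratified epithelia they are known as abundant proteins of the cell cortex and of the envelope of differentiating keratinocytes, with parts in membrane repair, vesicle traffic and cell-surface proteolysis. The members described here were chosen by gene symbol, from *Anxa1* to *Anxa9* together with *Anxa11*. All 10 were found among the 21628 entries of the expression table, 21607 of which were analysed.

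The study asked which genes distinguish lingual epithelial cells with high SOX2 from those with lower SOX2 around birth, when taste bud renewal begins. Tongue epithelium of P0 (day 0) Sox2GFP mice, which received no treatment named in the labels, was dissociated and sorted by flow cytometry on GFP fluorescence, and RNA of about 100000 cells per population was sequenced as strand-specific poly(A) libraries with 50-nt single reads. There was 1 GFPhigh and 1 GFPlow library. Pups of several litters were pooled before the sort, the reporter stands in for SOX2 protein, and both gates were drawn on one continuous range of fluorescence. No difference below has a replicate check, so no p-value or error is given, and the description is of these 2 libraries.

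Levels are FPKM, the number of sequenced fragments divided by transcript length and by library size, and can therefore be compared between genes. A gene was called higher in a population at 5 FPKM or more in that library and a ratio of at least 1.5 over the other. Both sizes are those of the study, whose methods word the minimum as met in each sample; with 5 FPKM required in both libraries the same 3 annexins were called. The submitters' labels give about 75000000 reads per library. The spacing of the low FPKM values of genes with a single annotated transcript pointed to approximately 27200000 mapped reads in the GFPhigh and 35100000 in the GFPlow library. At these depths 64.5% of 200 low GFPhigh values and 64.7% of 150 low GFPlow values fell within 0.15 of a whole read, against 30% at a depth not chosen to bring them there, so whole reads were not recovered.

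The sort was first checked on *Sox2*, whose level was 112 FPKM in the GFPhigh and 59.0 FPKM in the GFPlow library, 1.90-fold higher in GFPhigh cells. Both libraries carried the keratins of lingual basal cells, with *Krt5* at 9667 FPKM in GFPhigh and 10422 FPKM in GFPlow cells. All 6 taste cell and progenitor markers, *Sox2* among them, were called higher in GFPhigh cells, and their summed level was 318 FPKM against 139 FPKM, *Krt19* being the most abundant. The epithelial label therefore has its defining markers in both libraries. Both also held RNA of fibroblast markers, and the GFPlow library held more of it and of Schwann lineage markers. Summed levels of the 7 fibroblast markers were 505 FPKM in GFPhigh and 2460 FPKM in GFPlow cells, with *Col3a1* the most abundant, and those of the 6 Schwann lineage markers were 67.3 and 255 FPKM, with *Erbb3* the most abundant in GFPhigh cells. *Erbb3*, at 60.3 and 66.9 FPKM and not called, made up most of the GFPhigh sum, while *Sox10* was at 0.51 FPKM in GFPhigh and 42.7 FPKM in GFPlow cells.

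Among the 10 annexins, *Anxa1* and *Anxa2* were called higher in GFPhigh cells, where 4.72% of all genes with a number in both libraries were called. *Anxa8* was called higher in GFPlow cells, where 4.44% of all genes were called. Genes below 5 FPKM in both libraries cannot be called. Of the 10760 genes at 5 FPKM or more in either library, which include every annexin but *Anxa9*, 9.48% were called higher in GFPhigh and 8.90% in GFPlow cells. The other 7 members were not called. These 3 called genes were also the 3 most abundant annexins in both libraries, and together they made up 89.4% of the annexin FPKM in GFPhigh and 86.7% in GFPlow cells. Of the 273 genes at 500 FPKM or more in either library, 15.4% were called higher in GFPhigh and 8.42% in GFPlow cells, and these 273 include the 3 called annexins.

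**Figure D1:**
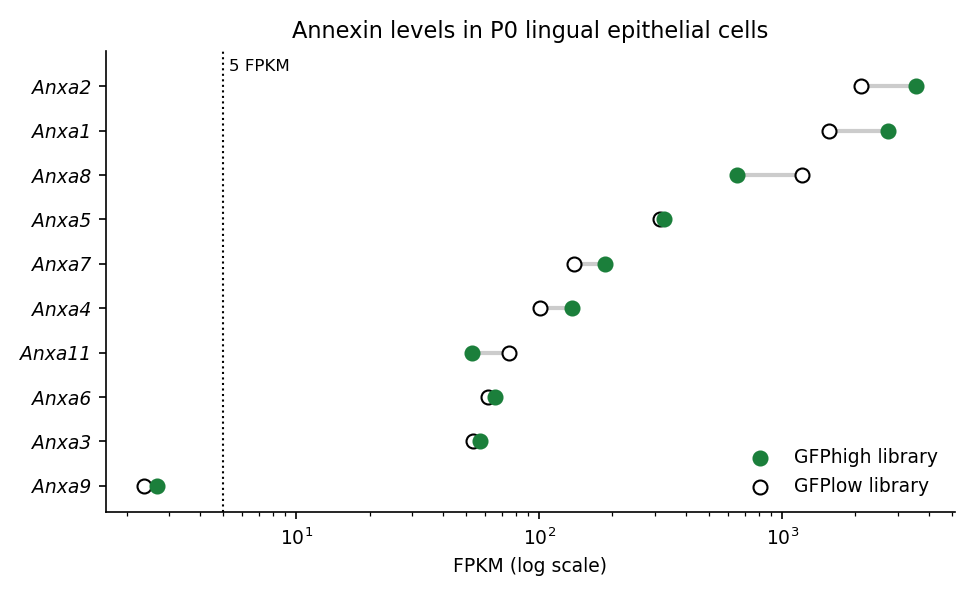
FPKM of the 10 annexins on a log axis, with 1 filled point for the GFPhigh and 1 open point for the GFPlow library per gene. *Anxa2* and *Anxa1* lie at the top with the GFPhigh point to the right, *Anxa8* comes next with the GFPlow point to the right, and *Anxa9* alone lies below the dotted line at 5 FPKM.

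*Anxa1* (ENSMUSG00000024659, mm10 chr19:20373428-20390944, minus strand) encodes a protein first described as an inhibitor of phospholipase A2, which is also a ligand of formyl peptide receptors and a substrate of the EGF receptor. Its level was 2734 FPKM in the GFPhigh and 1555 FPKM in the GFPlow library. The GFPhigh library was thus the higher, with a ratio of 1.76 (log2 ratio 0.81). *Anxa1* ranked 30 among all genes by FPKM in GFPhigh cells and 53 in GFPlow cells.

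*Anxa2* (ENSMUSG00000032231, mm10 chr9:69453620-69491795, plus strand) encodes the annexin that forms a heterotetramer with S100A10 at the plasma membrane and binds plasminogen activator and plasminogen there. It was the most abundant annexin in both populations, at 3559 FPKM in GFPhigh and 2103 FPKM in GFPlow cells. It too was higher in the GFPhigh library, by a ratio of 1.69 (log2 ratio 0.76), and ranked 23 and 40 among all genes. The ratio of *Anxa2* to *Anxa1* differed little between the libraries, at 1.30 in GFPhigh and 1.35 in GFPlow cells.

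*Anxa8* (ENSMUSG00000021950, mm10 chr14:34085981-34100571, plus strand) encodes an annexin that binds anionic phospholipids and F-actin, is found on late endosomes and is known from stratified epithelia. Its level was 650 FPKM in the GFPhigh and 1203 FPKM in the GFPlow library. On the deposited scale it was the only called annexin that was higher in GFPlow cells, by a ratio of 1.85 (log2 ratio -0.89). It ranked 170 among all genes in GFPhigh and 70 in GFPlow cells. *Anxa8* made up 8.37% of the annexin FPKM in GFPhigh and 21.5% in GFPlow cells, so that the composition of the family differed between the populations. For each unit of *Anxa8* FPKM there were 4.20 units of *Anxa1* FPKM in GFPhigh and 1.29 in GFPlow cells. In bulk RNA of sorted cells, fewer cells expressing a gene and less of its RNA per cell cannot be told apart.

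*Anxa5* and *Anxa6* encode widely expressed annexins. Annexin A5 forms lattices on exposed phosphatidylserine and is used as a probe of apoptotic cells, and annexin A6 has a duplicated core and acts in endocytic traffic and cholesterol transport. *Anxa5* (ENSMUSG00000027712, mm10 chr3:36448923-36475894, minus strand) had 325 FPKM in GFPhigh and 314 FPKM in GFPlow cells. *Anxa6* (ENSMUSG00000018340, mm10 chr11:54979108-55033445, minus strand) had 65.9 and 61.3 FPKM. Ratios of GFPhigh over GFPlow were 1.03 for *Anxa5* and 1.07 for *Anxa6*, and neither gene was called.

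*Anxa4* and *Anxa7* encode annexins that aggregate membranes and act in exocytosis. The level of *Anxa4* (ENSMUSG00000029994, mm10 chr6:86736840-86793584, minus strand) was 136 FPKM in GFPhigh and 101 FPKM in GFPlow cells, a ratio of 1.35. That of *Anxa7* (ENSMUSG00000021814, mm10 chr14:20455260-20480133, minus strand) was 186 and 138 FPKM, a ratio of 1.34. Both values were higher in the GFPhigh library and below the 1.5-fold threshold.

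*Anxa11* (ENSMUSG00000021866, mm10 chr14:25842156-25886804, plus strand) encodes an annexin with a long proline-rich tail that tethers RNA granules to lysosomes. Its level was 52.6 FPKM in GFPhigh and 75.3 FPKM in GFPlow cells. With *Anxa8* it was 1 of 2 members that were higher in the GFPlow library, and its ratio of 1.43 was below the threshold. When both libraries were scaled to the same FPKM total (a TPM scale), the ratio of GFPlow over GFPhigh became 1.53 and *Anxa11* was called. Exons of the antisense gene *Anxa11os* overlap it, and 16.2% of its 50-nt windows also occur in transcripts of other genes on either strand. The libraries are stranded but the use of strand in quantification is not given in the sources used here, so the *Anxa11* values are uncertain.

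*Anxa3* (ENSMUSG00000029484, mm10 chr5:96793339-96845966, plus strand), an annexin of epithelial and phagocytic cells, had 57.1 FPKM in GFPhigh and 53.6 FPKM in GFPlow cells, a ratio of 1.07. *Anxa9* (ENSMUSG00000015702, mm10 chr3:95296096-95307176, minus strand), whose product has lost most calcium-binding residues of the core, was the least abundant member. Its values were 2.66 FPKM in GFPhigh and 2.37 FPKM in GFPlow cells, below the FPKM minimum in both. At the approximate depths above these correspond to about 136 and 156 reads, so it was detected in both populations. *Anxa10*, outside the 10 members, was listed at 0.02 FPKM in GFPhigh cells, about 1 read, and at 0 in GFPlow cells, and *Anxa13* was not analysed here.

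By level, the order of the annexins was the same in both libraries for the first 6, *Anxa2*, *Anxa1*, *Anxa8*, *Anxa5*, *Anxa7* and *Anxa4*. *Anxa6*, *Anxa3* and *Anxa11* followed within a range of 52.6 to 65.9 FPKM in GFPhigh cells, and *Anxa11* was the highest of these 3 genes in GFPlow cells. With 1 library per population, no spread is known that would separate neighbours in this order. The 10 annexins summed to 7768 FPKM in GFPhigh and 5607 FPKM in GFPlow cells, which is 0.725% and 0.561% of the summed FPKM of each library. Leaving out the 3 called genes, the other 7 annexins summed to 825 FPKM in GFPhigh and 746 FPKM in GFPlow cells.

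On the scale of log2(FPKM + 1), the median difference of the 10 annexins, GFPhigh minus GFPlow, was 0.11, and that of all 17283 genes above 0 in either library was -0.02. On the deposited scale 8 members were higher in GFPhigh cells, but *Anxa3* and *Anxa5* turned to the GFPlow side on the TPM scale. That scale moves every log2 ratio by -0.10, because the summed FPKM of the GFPhigh library was 1.07 times that of the GFPlow library. On it the annexin median was 0.03 and the median of all genes -0.08.

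**Figure D2:**
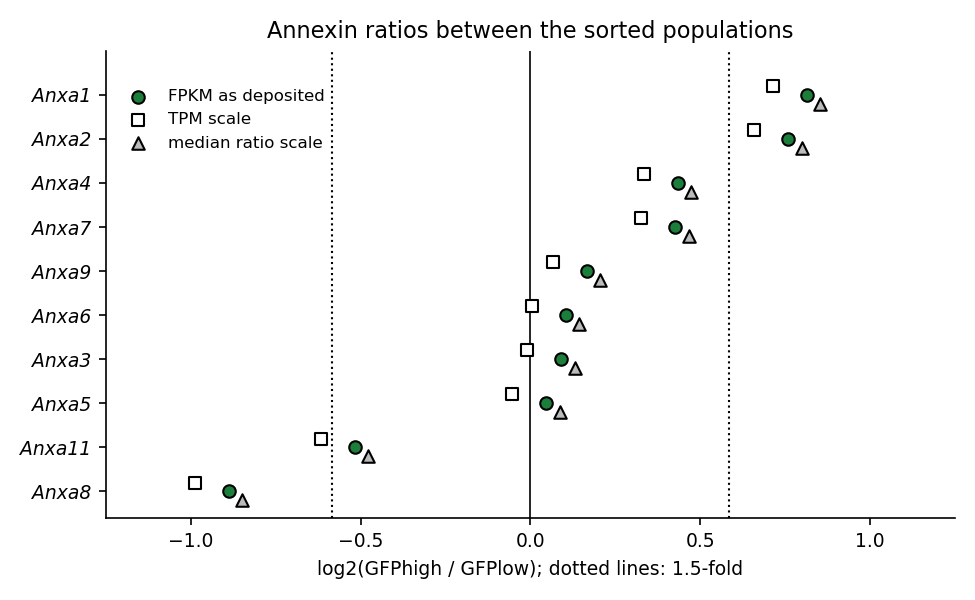
Log2 ratio of GFPhigh over GFPlow for each annexin, from FPKM as deposited (circles), on the TPM scale (squares) and after scaling the GFPlow library by the median ratio (triangles), with dotted lines at 1.5-fold. *Anxa1*, *Anxa2* and *Anxa8* lie beyond the lines under all 3 scalings, *Anxa11* on the TPM scale alone, and the squares of *Anxa3* and *Anxa5* lie left of 0.

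Among all genes, those nearest to the called annexins in both libraries were sought as the 3 genes at the smallest distance in log2(FPKM + 1). Nearest to *Anxa2* were *Dmkn*, a secreted keratinocyte protein, at 3426 FPKM in GFPhigh and 2019 FPKM in GFPlow cells, then *Ly6d*, a surface protein of squamous epithelia, and *Krt17*. All 3 neighbours of *Anxa2* were called higher in GFPhigh cells, with ratios of 1.70, 1.68 and 1.81. Nearest to *Anxa1* were *Sbsn* (suprabasin), at 2162 and 1378 FPKM, then *Mt2* and *Gpx1*, and of these *Sbsn* was called, at a ratio of 1.57 that fell below the threshold on the TPM scale, at 1.46. For *Anxa8* the first 2 were *Flna*, at 804 and 1022 FPKM, and *Bcam*. Neither of these was called, with ratios of GFPlow over GFPhigh of 1.27 and 1.26. Within a distance of 0.5 there were 6 genes around *Anxa1*, 8 around *Anxa2* and 5 around *Anxa8*. Likeness over 2 libraries is a weak measure, since any gene of the same level and ratio meets it.

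**Figure D3:**
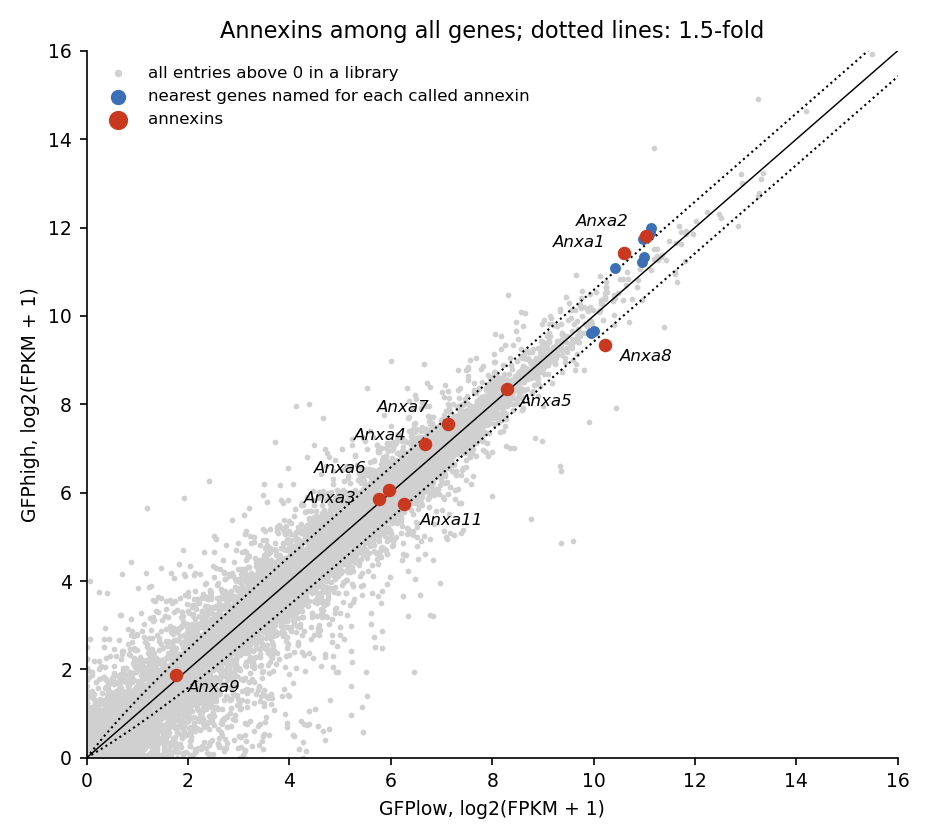
Levels of all genes above 0 in either library as log2(FPKM + 1), GFPlow on the horizontal and GFPhigh on the vertical axis, with annexins in red and the nearest genes named for each called annexin in blue. The solid line marks equal levels and the dotted lines 1.5-fold; *Anxa1* and *Anxa2* lie above the upper dotted line and *Anxa8* below the lower one.

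Annexin genes are spread over 7 chromosomes, with 3 members (*Anxa7*, *Anxa8* and *Anxa11*) on chromosome 14 and *Anxa5* and *Anxa9* on chromosome 3. On chromosome 14 *Anxa8* and *Anxa11* were higher in GFPlow and *Anxa7* in GFPhigh cells. *Anxa1*, *Anxa5*, *Anxa6*, *Anxa7* and *Anxa8* shared no 50-nt window with transcripts of other genes, and the share was 1.35% for *Anxa2*, 1.79% for *Anxa3*, 1.37% for *Anxa4* and 3.22% for *Anxa9*. *Anxa11*, at 16.2%, had the largest share of the 10.

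RefSeq promoter entries (GRCm38.p6) were held for 8 of the 10 members, and the 250 bases before the start were searched on both strands for 5 motifs. The TATA box was spelled TATAAA. The GC box was spelled GGGCGG and the AP-1 motif TGANTCA. The forkhead motif was spelled TGTTTAC and the SOX motif ACAAAG. The stretches of the 3 called annexins are shown because *Anxa1* and *Anxa2* were higher in the same library and *Anxa8* in the other. Capitals mark the motif letters. Where a stretch lies in an annotated exon of a longer transcript of the same gene, just the 30 bases around the TATA box are printed, from chr19:20390686-20390715 on the minus strand for *Anxa1* and from chr9:69453653-69453682 on the plus strand for *Anxa2*. The longer *Anxa2* stretch is chr9:69453433-69453619 on the plus strand, upstream of every annotated *Anxa2* exon, and that of *Anxa8* is chr14:34085729-34085978 on the plus strand.
Anxa1, 30 bases: cagttcatatccTATAAAatcaggagtcca
Anxa2, 30 bases: aggatgGGGCGGgTATAAAagccccaccca
Anxa2, 187 bases: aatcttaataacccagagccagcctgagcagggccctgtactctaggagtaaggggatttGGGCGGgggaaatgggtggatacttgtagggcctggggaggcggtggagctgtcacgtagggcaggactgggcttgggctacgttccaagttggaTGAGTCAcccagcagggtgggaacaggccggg
Anxa8, 250 bases: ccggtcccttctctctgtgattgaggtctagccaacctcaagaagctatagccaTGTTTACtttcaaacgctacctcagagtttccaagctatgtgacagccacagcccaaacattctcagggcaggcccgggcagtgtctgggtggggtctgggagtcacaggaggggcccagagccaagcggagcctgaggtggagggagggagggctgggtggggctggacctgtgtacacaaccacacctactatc

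The TATA box was present before the start of *Anxa1*, from base 32 to base 27, and of *Anxa2*, from base 17 to base 12, and in none of the other annexin entries searched. It occurred in 12.4% of all 32851 promoter entries. *Anxa2* also had 3 GC boxes, a motif of 32.7% of all entries, and 1 AP-1 motif, found in 6.75%. The GC box was also present before *Anxa7* and *Anxa11*. *Anxa8* had neither a TATA box nor a GC box, and 1 forkhead motif, found in 3.17% of all entries. The SOX motif occurred before *Anxa11* and *Anxa9*, against 16.5% of all entries. Of the bases read, 46.0% were G or C for *Anxa1*, 62.4% for *Anxa2* and 58.0% for *Anxa8*, and the median of all entries was 52.4%. These matches describe the letters of the windows, and binding was not measured.

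Partners of annexins were taken from lists of associated genes. Their counts are to be read beside those of all 10760 genes at 5 FPKM or more in either library, of which 9.48% were called higher in GFPhigh and 8.90% in GFPlow cells. Of 6 EF-hand proteins that bind annexins, all at 5 FPKM or more, 2 were called higher in GFPhigh and 1 in GFPlow cells, with a median log2 difference of 0.36. *S100a10*, the partner of annexin A2, had 1126 FPKM in GFPhigh and 748 FPKM in GFPlow cells. It was called higher in GFPhigh cells at a ratio of 1.51, just past the threshold, and the call was lost on the TPM scale, where the ratio was 1.40. For every 100 FPKM of *Anxa2* there were 31.6 FPKM of *S100a10* in GFPhigh and 35.6 FPKM in GFPlow cells.

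*S100a6*, whose product binds annexins A2, A6 and A11, had 1376 FPKM in GFPhigh and 703 FPKM in GFPlow cells, and was called higher in GFPhigh cells at a ratio of 1.96. *S100a11*, the partner of annexin A1, had 1622 and 1207 FPKM, a ratio of 1.34 that was not called. *S100a4* went the other way, with 30.5 FPKM in GFPhigh and 62.1 FPKM in GFPlow cells, and was called higher in GFPlow cells at a ratio of 2.04. Transcripts of other genes hold 41.1% of the 50-nt windows of *S100a11* and 47.4% of those of *S100a4*, which makes both values uncertain. *Sri* (sorcin), which binds annexins A7 and A11, had 150 and 122 FPKM, and *Pdcd6* (ALG-2), which binds annexins A7 and A11, had 104 and 98.8 FPKM. Neither was called, and the ratio of *Pdcd6* turned to the GFPlow side on the TPM scale.

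The formyl peptide receptors, through which annexin A1 acts on leukocytes, were at or near 0 in both libraries. *Fpr1* was listed at 0 in GFPhigh and 0.02 FPKM in GFPlow cells, *Fpr2* at 0 and 0.05 FPKM, and *Fpr3* at 0 in both. Of the 50-nt windows of *Fpr2*, 31.5% occur in transcripts of other genes, *Fpr1* and *Fpr3* among them, so its value is uncertain.

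Of 8 genes of plasminogen activation, a process that annexin A2 assembles at the cell surface, 7 were at 5 FPKM or more, and 2 were called higher in GFPhigh (9.48% of all genes at that level) and 1 in GFPlow cells (8.90%), with a median log2 difference of 0.31 over these 7 and 0.20 over all 8. *Plaur*, the urokinase receptor, had 41.6 FPKM in GFPhigh and 19.9 FPKM in GFPlow cells, 2.10-fold higher in GFPhigh cells. *Serpinb2*, an inhibitor of urokinase, had 208 and 81.0 FPKM, 2.57-fold higher in GFPhigh cells. *Serpine2*, another protease inhibitor, had 12.4 and 48.2 FPKM and was 3.90-fold higher in GFPlow cells. The activators *Plau* and *Plat* and the receptor *Plgrkt* were not called, and *Plg*, the gene of plasminogen, was near 0 at 0.03 and 0.11 FPKM. Called genes here thus include the receptor and inhibitors of both directions, and none of the activators.

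In the list of membrane repair genes, 10 of 12 were at 5 FPKM or more and 1 was called, a share near the 9.48% of all genes at that level called higher in GFPhigh cells. It was *Ahnak*, which encodes a giant protein bound by the annexin A2 and S100A10 complex. It had 203 FPKM in GFPhigh and 131 FPKM in GFPlow cells, a ratio of 1.55, and lost its call on the TPM scale, where the ratio was 1.44. On the deposited scale 8 of the 10 genes of the list at 5 FPKM or more were higher in GFPhigh cells (*Vps4b* turned to the GFPlow side on the TPM scale). The median difference in log2(FPKM + 1) was 0.44, over these 10 as over all 12. For all genes a plain log2 ratio was taken instead, over those at 5 FPKM or more in both libraries, and its median was -0.04. The 2 values thus differ in measure and in the genes admitted. Of 6 genes of phosphatidylserine transport, which expose or remove the lipid that annexins bind, 4 were at 5 FPKM or more and none of these was called, and the median log2 difference was -0.19 over these 4 and -0.17 over all 6.

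Phospholipase A2 releases arachidonic acid, and annexin A1 was first described by its effect on that step. Of 8 genes of phospholipase A2 and eicosanoid synthesis, 6 were at 5 FPKM or more, 1 was called in each direction and the median log2 difference was -0.16. On the TPM scale *Ptges*, a prostaglandin E synthase at 48.4 and 69.5 FPKM, was also called higher in GFPlow cells, at a ratio of 1.54. *Alox12*, an epithelial lipoxygenase, had 78.7 FPKM in GFPhigh and 28.1 FPKM in GFPlow cells, 2.80-fold higher in GFPhigh cells. *Ptgs1*, a cyclooxygenase, had 25.9 and 43.1 FPKM, 1.66-fold higher in GFPlow cells.

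**Figure D4:**
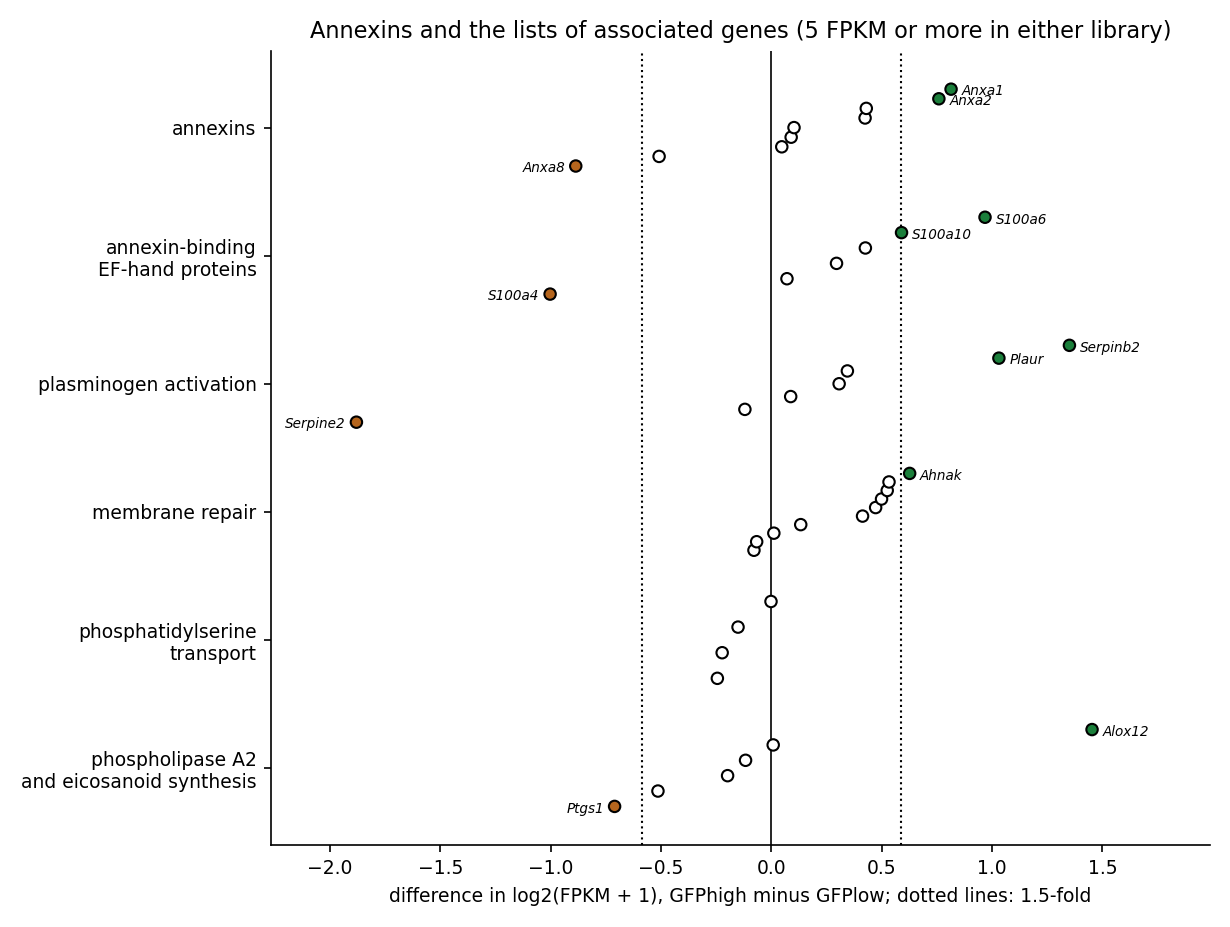
Difference in log2(FPKM + 1), GFPhigh minus GFPlow, for annexins and the genes of each associated list at 5 FPKM or more in either library. Green points were called higher in GFPhigh cells, brown points higher in GFPlow cells and open points were not called; on the TPM scale *S100a10* and *Ahnak* lose their call and *Anxa11* and *Ptges* gain one.

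Markers of keratinocyte layers and of other cell types differed between the libraries beside the annexins, and their part in the annexin differences was not tested. Of 8 suprabasal keratinocyte markers, 5 were called higher in GFPhigh cells, with summed levels of 51045 FPKM in GFPhigh and 16684 FPKM in GFPlow cells. *Krt13* was the most abundant of them, at 30523 and 9738 FPKM, and *Ivl* (involucrin) was low at 0.67 and 2.19 FPKM. Of 7 basal keratinocyte markers, 1 (*Itgb4*) was called, higher in GFPlow cells, with summed levels of 25796 and 32952 FPKM and *Krt5* the most abundant, and *Krt14* was called as well on the TPM scale. All 7 basal markers had the higher value in GFPlow cells. *Anxa1* and *Anxa2* were higher in the library in which 5 of the 8 suprabasal and all 6 taste cell and progenitor markers were called higher.

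All 5 markers of filiform papillae and hair keratins were called higher in GFPlow cells, with summed levels of 66.6 FPKM in GFPhigh and 1558 FPKM in GFPlow cells and *Krt84* the most abundant. Of the fibroblast markers 6 of 7 and of the Schwann lineage markers 4 of 6 were called higher in GFPlow cells as well. *Anxa8* was higher in the library with more RNA of these 3 lists and of the basal keratinocyte list, and *Anxa1* and *Anxa2* were lower in it. Whether any of these lists accounts for the annexin values was not tested.

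Other lists were low in both libraries. The 6 macrophage and leukocyte markers summed to 17.1 FPKM in GFPhigh and 19.2 FPKM in GFPlow cells, most of it *Cd68*, and the pan-leukocyte gene *Ptprc* was near 0 at 0.06 and 0.02 FPKM. Endothelial markers summed to 32.7 and 23.7 FPKM, with *Egfl7* the most abundant and 1 of 6 (*Pecam1*) called higher in GFPhigh cells, a call lost on the TPM scale, where it falls below the minimum. Skeletal muscle markers summed to 20.0 and 19.7 FPKM, with *Tnnt3* the most abundant in GFPhigh and *Acta1* in GFPlow cells, and 1 of 6 (*Tnnt3*) called higher in GFPhigh cells. Melanocyte markers summed to 18.5 and 3.03 FPKM, of which *Mitf*, the 1 of 5 that was called, made up 17.2 and 1.24 FPKM, while *Tyr* was listed at 0 in both.

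**Figure D5:**
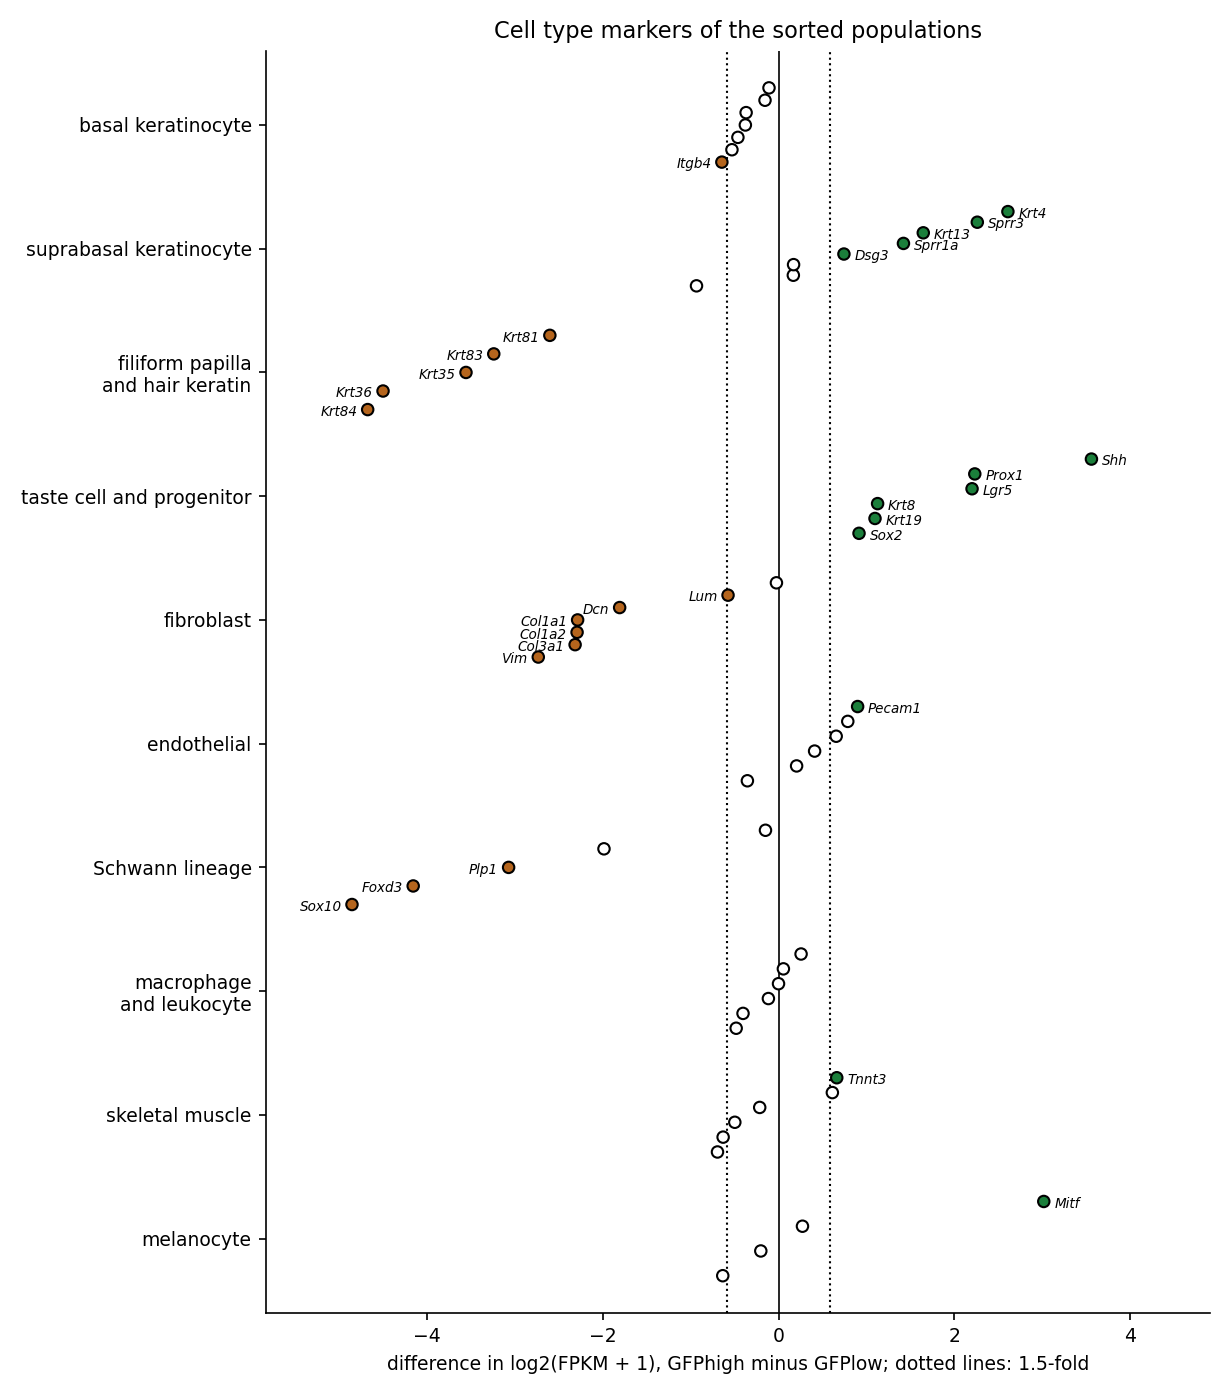
Difference in log2(FPKM + 1), GFPhigh minus GFPlow, for the markers shown of each cell type, all above 0 in either library, with colours as for called genes (green higher in GFPhigh, brown higher in GFPlow, open not called) and dotted lines at 1.5-fold. Suprabasal and taste markers lie mostly to the right, and hair keratin, fibroblast and Schwann lineage markers to the left; on the TPM scale *Krt14* gains a call and *Pecam1* loses one.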

How the data were processed

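The authors trimmed the reads with Trimmomatic 0.36, mapped them to mm10 with GSNAP and deposited FPKM values from Cufflinks 2.2.1, 1 column per library, rounded to 2 decimals. The columns are named as means, although the labels list 1 sample per population. A column of the authors' fold changes was not used. Of 21628 entries, 21 with a non-coding type in GENCODE M21 were dropped, and 17 without a number in a library were not compared. Values were computed with Python 3.11.15, pandas 2.3.3 and numpy 2.4.6, and the call rule was tested on simulated data. Positions and shared 50-nt windows come from GENCODE M21 (GRCm38). Genes were named by rule: all 10 annexins, called genes of the associated lists at 5 FPKM or more, partners of members whatever their value, cell type markers, and the 3 genes nearest to each called annexin (1 marker and 1 nearest gene are not reported here). *Plau*, *Plat*, *Plgrkt*, *Plg*, *Ptges*, *Vps4b* and *Anxa10* and the motifs were chosen after values were seen. Members and lists were chosen with earlier results of these data known. FPKM minimum, fold, pseudocount and library scaling were varied.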

Additional observations from a re-analysis of the deposited data

How the results depend on the processing

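*Anxa1* and *Anxa2* were called higher in GFPhigh cells and *Anxa8* in GFPlow cells under every alternative run except the 2-fold minimum, under which 0 annexins were called in either direction. On the TPM scale 2 annexins were called higher in GFPlow cells, *Anxa8* and *Anxa11*. Of 40 recomputed annexin ratios, 37 kept their direction and their side of the threshold, 1 (*Anxa11*) passed it, and 2 reversed on the TPM scale, *Anxa3* to a log2 ratio of -0.0091 and *Anxa5* to -0.053. The 40 include the runs with a pseudocount, which hardly moves a ratio at the levels of most members. Scalings of the partner genes were chosen after seeing the data, and *Pdcd6* reversed to -0.029 on the TPM scale. Without the 10 genes of highest FPKM the annexins' share was 0.874% in GFPhigh and 0.650% in GFPlow cells, since the total is smaller. The annexin median was 0.13 with a pseudocount of 0.1 and 0.025 on the TPM scale.

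Over all genes, 1020 were called higher in GFPhigh and 958 in GFPlow cells. These counts became 1541 and 1563 with a minimum of 1 FPKM, 3136 and 3250 with none, and 448 and 467 at 2-fold, and 777 and 633 when both libraries had to reach 5 FPKM. On the TPM scale 807 and 1219 genes were called, so that 39.8% of calls were higher in GFPhigh cells against 51.6% on the deposited scale, and on the median ratio scale they were 1107 and 856, or 56.4%. The pooled pups, the single library per population and the mixed populations, GFPlow above all, limit all values, and the approximate depth limits those of *Anxa9* and *Anxa10*.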
